A study of Mus musculus with 15 samples.

Results

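The transcripts described here are those of 10 immediate early and stress genes, Fos, Fosb, Fosl1, Fosl2, Jun, Junb, Jund, Egr1, Atf3 and Ier2, in sorted mouse islet cells. They were taken by gene symbol from the deposited expression table, in which they are 10 of 38283 genes. The series holds 15 RNA sequencing samples from mice of the C57BL/6 strain: 5 of alpha cells, 4 of beta cells and 6 of delta cells, the islet cells that make glucagon, insulin and somatostatin. Alpha and beta cells came from Glu-Venus mice, in which the proglucagon promoter drives the fluorescent protein Venus. Alpha cells were sorted as Venus-positive, and beta cells were recognised without a reporter of their own, as Venus-negative cells of high scatter and autofluorescence. Delta cells came from Sst-CreXROSA26EYFP/EYFP mice, in which Cre under the somatostatin promoter switches on the yellow fluorescent protein EYFP. Mouse line and cell type therefore cannot be told apart in any comparison with delta cells. Each sample pooled the islets of several mice. The age and sex of the mice were not given in the sources used here, and the labels name no agent for any group. All samples shared the same path to RNA: collagenase digestion of the pancreas at 37°C, hand-picking of islets, dispersal to single cells and sorting into lysis buffer. Intact islets and undispersed cells are not among the samples, so a response to this handling cannot be told apart from the level in the living islet.

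Immediate early genes are transcribed within minutes of a stimulus, without the need for new protein, when kinases act on transcription factors already bound to their promoters. Calcium influx, growth factors, secretagogues, mechanical disruption and enzymatic digestion all induce them, which is why they are often read as a trace of tissue dissociation. Fos and Jun proteins pair through leucine zippers to form AP-1, a factor that binds DNA at short palindromic sites. Fos, Fosb, Fosl1 and Fosl2 encode the Fos side of the pair and cannot form dimers with each other, whereas Jun, Junb and Jund encode the Jun side and also pair among themselves. Egr1 encodes a zinc finger factor, Atf3 a basic leucine zipper factor of the stress response, and Ier2 a small nuclear protein. In endocrine cells, Fos, Egr1 and their relatives also rise when the cell is depolarised, so their transcripts report recent electrical and calcium activity as well as handling.

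Promoter sequences were examined because several of these genes are classically induced through the cAMP response element (CRE), the site bound by CREB. RefSeq promoters of the GRCm38.p6 assembly were at hand for 7 of the 10 genes. Each ran from 250 bases before to 50 bases after the RefSeq transcription start. Egr1, Fosl1 and Ier2 were not among the entries. For Jund the upstream bases end at chr8:70697738, whereas the gene as placed below starts at 70698949. Its window therefore does not lie at that start, and a lack of motifs in it does not describe that start. The CRE core TGACG, searched on both strands, was present in 4 of these 7 promoters and in 20.81% of 32851 mouse promoters of the same length. The bases upstream of the start are shown for Fos (chr12:85473640-85473889, + strand), Fosb (chr7:19310046-19310295, − strand), Junb (chr8:84978749-84978998, − strand) and Jun (chr4:95052223-95052472, − strand), because Fos, Fosb and Junb carry the core, and Jun, whose level among samples of a cell type was correlated with that of each of them, does not. Each reads 5′ to 3′ on the strand of the gene and ends at the base before the start, and capitals mark TGACG and, in Fosb, the EGR1 site GCGNGGGCG.
Fos: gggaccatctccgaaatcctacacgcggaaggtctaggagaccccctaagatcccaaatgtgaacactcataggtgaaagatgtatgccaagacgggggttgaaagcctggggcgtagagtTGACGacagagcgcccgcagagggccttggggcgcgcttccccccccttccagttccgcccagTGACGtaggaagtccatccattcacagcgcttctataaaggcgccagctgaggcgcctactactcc
Fosb: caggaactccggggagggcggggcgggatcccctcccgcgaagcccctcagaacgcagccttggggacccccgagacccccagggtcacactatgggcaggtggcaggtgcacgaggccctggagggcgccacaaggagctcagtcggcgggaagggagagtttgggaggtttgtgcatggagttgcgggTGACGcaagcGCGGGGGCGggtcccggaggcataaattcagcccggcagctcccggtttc
Junb: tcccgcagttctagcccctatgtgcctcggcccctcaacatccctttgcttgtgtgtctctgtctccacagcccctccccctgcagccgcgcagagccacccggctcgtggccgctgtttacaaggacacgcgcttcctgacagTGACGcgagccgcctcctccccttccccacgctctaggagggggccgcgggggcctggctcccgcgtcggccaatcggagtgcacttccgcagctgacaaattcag
Jun: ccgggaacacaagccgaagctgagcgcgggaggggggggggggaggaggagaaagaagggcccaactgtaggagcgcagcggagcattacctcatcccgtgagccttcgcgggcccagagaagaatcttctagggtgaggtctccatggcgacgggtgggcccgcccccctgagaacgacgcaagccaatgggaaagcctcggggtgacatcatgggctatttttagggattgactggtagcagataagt
Fos carried the core at positions −129 to −125 and again at −66 to −62, counted from the start. Junb carried it at −106 to −102 and Fosb at −60 to −56. The fourth promoter was that of Atf3, with the core on the opposite strand at −7 to −3. The 250 bases of Jun shown here had no capitals, because neither motif was found in its 300-base window. The EGR1 site was found in the promoters of Fosb, at −50 to −42, and of Fosl2, at −79 to −71, and in 5.55% of all promoters. The full CRE TGACGTCA, which contains the core and was held by 1.79% of all promoters, was found in 0 of the 7, as were the AP-1 site TGANTCA (7.81% of all promoters) and the CArG box bound by serum response factor (1.63%). The search took exact letters, so near matches were not counted. An example is tgacatca in the Jun sequence, which differs from the full CRE by a single base. Bases further upstream were not searched. These matches describe the letters within the windows and not binding.

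Expression was given as FPKM, a count of fragments scaled by transcript length and library size, which allows levels of different genes to be set side by side. The cell types matched their labels. Mean Gcg was 2.731e+05 FPKM in alpha cells, 635.8 in beta and 515.3 in delta samples, mean Ins2 was 2.952e+05 FPKM in beta cells and at most 5768 in the others, and mean Sst was 1.633e+05 FPKM in delta cells and at most 1619 in the others. Ppy, the hormone of PP cells, was at 1.773e+04 to 4.139e+04 FPKM in alpha, 16.95 to 98.08 in beta and 1.086e+04 to 4.86e+04 in delta samples. Between 14761 and 18559 genes were above 0 per sample. The depth could be read from the smallest steps between FPKM values in 6 samples and lay between 7420000 and 30440000 reads. It is unknown in the other 9, which include every beta sample. A limit of 50000 FPKM on summed ribosomal protein transcripts was used to divide the samples into 2 sets. The sums also varied widely within each set. Summed over 85 genes, these transcripts came to 65936 to 141332 FPKM in alpha replicates 1 to 3, beta replicate 2 and delta replicates 1 and 2. In the other 9 samples they came to 8171 to 38995 FPKM. Both sets held every cell type. In such bulk samples a lower level in every cell and fewer cells that express a gene cannot be told apart.

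Egr1, Ier2 and the 3 Jun genes were higher in delta than in beta cells. Against alpha cells fewer passed the test, with Jun and Ier2 lower in beta cells and Egr1 higher in delta cells. Fos itself passed in no pair of cell types. Differences were tested with limma on log2(FPKM + 1) over the 14405 genes with a mean above 1 FPKM in at least 1 cell type, and p-values were adjusted over all of them by the Benjamini-Hochberg method. Of the 10 genes, 8 passed that filter, and Fosl1 and Atf3 did not. Across the 3 cell types 5 of the 8, namely Ier2 (adjusted p = 0.00143), Egr1 (0.00389), Jund (0.0173), Jun (0.0175) and Junb (0.0268), differed at an adjusted p under 0.05, against 16.0% of all genes tested. Fosb (adjusted p = 0.0633), Fosl2 (0.148) and Fos itself (0.501) did not pass. The median difference over the 8 genes was −0.77 for beta against alpha cells, 0.88 for delta against alpha and 1.67 for delta against beta on the log2 scale, beside −0.13, 0.13 and 0.30 over all genes tested. Fosb and Fosl2 passed the filter only through delta cells, where they were high, so these medians are descriptions of the genes that passed and not of all 10.

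**Figure D1:**
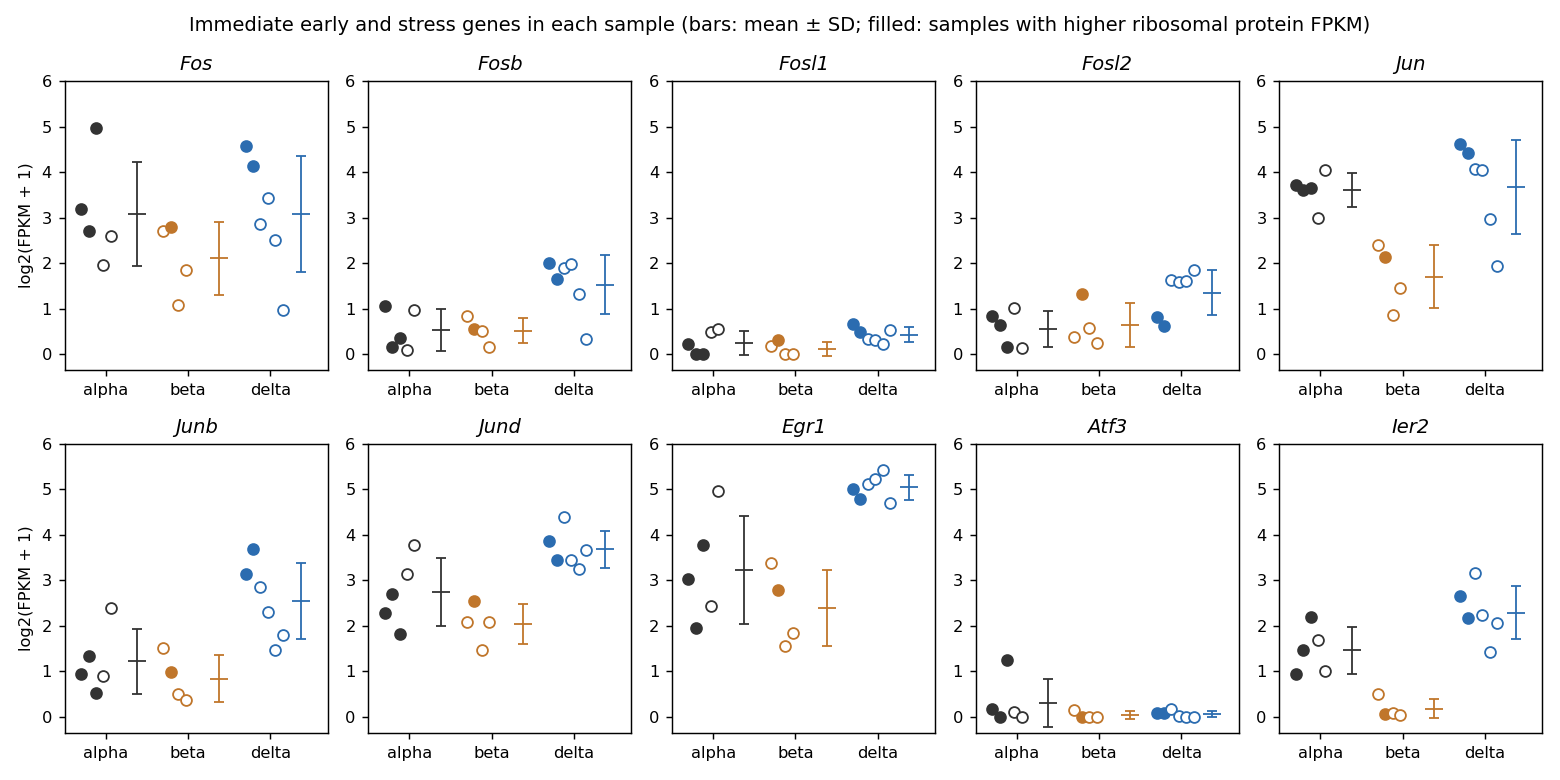
Level of each of the 10 genes, as log2(FPKM + 1), in every alpha, beta and delta sample, with replicates in order from left to right and the mean ± SD of each cell type to the right of its points. Filled points mark the 6 samples of the higher ribosomal protein set. Egr1 in the 6 delta samples sits in a narrow band from 24.9 to 41.7 FPKM, whereas Fos in the same samples runs from 0.971 to 22.7 FPKM.

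Egr1 (chr18:34859823-34864984, + strand, 2 exons), a zinc finger factor induced through the ERK and serum response factor pathway, had the highest mean of the 10 genes in delta cells. It was 31.3, 26.7, 33.8, 36.4, 41.7 and 24.9 FPKM in delta replicates 1 to 6, with a mean of 32.5 ± 6.26 (SD, n = 6). In alpha replicates 1 to 5 it was 7.18, 2.88, 12.6, 4.44 and 30.4 FPKM (mean 11.5 ± 11.2, n = 5), and in beta replicates 1 to 4 it was 9.40, 5.89, 1.95 and 2.60 FPKM (mean 4.96 ± 3.43, n = 4). Every delta sample was above every beta sample, and 1 alpha sample, replicate 5, reached into the delta range. The difference was 2.65 ± 0.515 (SE) between delta and beta cells (adjusted p = 0.00237, limma) and 1.81 ± 0.483 between delta and alpha cells (adjusted p = 0.0303) on the log2 scale. Egr1 was the only 1 of the 8 tested genes called higher in delta than in alpha cells, where 5.33% of all genes were called in that direction. The delta against alpha call was lost, at adjusted p between 0.0551 and 0.0913, on leaving out alpha replicate 1, 2 or 4 or delta replicate 1, 3, 4 or 5. It was also lost in the 9 samples of the lower ribosomal protein set alone, with a difference of 1.41 (adjusted p = 0.416), and kept with that set as a covariate over all 15 samples (adjusted p = 0.0388). Beta against alpha cells gave −0.84 ± 0.535 (adjusted p = 0.368).

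The spread of Egr1 was small in delta cells. Its SD on the log2 scale was 0.271 there, where 12.7% of the genes tested had a smaller SD, 0.839 in beta cells, where 55.1% did, and 1.18 in alpha cells, where 84.5% did. Its highest value was 1.68 times its lowest among the 6 delta samples and 10.5 times among the 5 alpha samples.

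Jun (chr4:95049034-95052222, − strand, a single exon) encodes the founding Jun partner of AP-1 and is driven by JNK and by its own product. It was low in beta cells, and its values overlapped between alpha and delta cells. Alpha replicates 1 to 5 were at 12.2, 11.3, 11.5, 6.98 and 15.4 FPKM (mean 11.5 ± 3.02, n = 5). Beta replicates 1 to 4 were at 4.25, 3.37, 0.805 and 1.74 FPKM (mean 2.54 ± 1.55, n = 4), and delta replicates 1 to 6 at 23.4, 20.5, 15.9, 15.5, 6.87 and 2.82 FPKM (mean 14.2 ± 7.90, n = 6). All beta samples lay below all alpha samples, whereas delta replicate 6 fell inside the beta range. The difference for beta against alpha cells was −1.90 ± 0.508 on the log2 scale (adjusted p = 0.0320, limma) and that for delta against beta cells 1.97 ± 0.489 (adjusted p = 0.0122). Delta against alpha cells gave 0.07 ± 0.459 (adjusted p = 0.975), a value whose sign turned with the scaling used. The beta against alpha call was lost, at adjusted p between 0.0521 and 0.0951, without alpha replicate 1, 2, 3 or 5 or beta replicate 3 or 4, and with no filter on level (adjusted p = 0.0531). In the lower ribosomal protein set alone, neither Jun call remained, with −1.95 (adjusted p = 0.128) and 1.69 (adjusted p = 0.0790), whereas both were kept with the set as a covariate (adjusted p = 0.0403 and 0.00684). Junos, an antisense RNA, shares 232 of the 3189 exonic bases of Jun, and the library kit did not keep strand, so reads there cannot be assigned to either. Where depth was readable, in some alpha and delta samples, Jun rested on at least 250.1 reads per sample. Depth was readable in no beta sample, so the reads behind the low beta levels are unknown.

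Ier2 (chr8:84661331-84662852, − strand, a single exon) encodes a nuclear protein induced by growth factors, and its transcript was low in every beta sample. Beta replicates 1 to 4 were at 0.410, 0.0540, 0.0698 and 0.0339 FPKM (mean 0.142 ± 0.179, n = 4). Alpha replicates 1 to 5 were at 0.915, 1.79, 3.60, 2.23 and 1.00 FPKM (mean 1.91 ± 1.09, n = 5), and delta replicates 1 to 6 at 5.28, 3.54, 7.92, 3.69, 1.70 and 3.19 FPKM (mean 4.22 ± 2.14, n = 6). The beta samples did not overlap with those of either other cell type, and the alpha and delta ranges overlapped. Ier2 rose from beta to delta cells by 2.11 ± 0.343 (adjusted p = 0.000587, limma), and beta against alpha cells gave −1.28 ± 0.356 (adjusted p = 0.0378), on a log2 scale that understates changes of genes this low. With a pseudocount of 0.1 these differences were 4.25 (adjusted p = 4.7e-05) and −3.12 (adjusted p = 0.00197). The reads behind the beta levels are unknown here too. For delta against alpha cells the difference was 0.82 ± 0.321 (adjusted p = 0.172). The beta against alpha call was lost, at adjusted p between 0.0527 and 0.104, without alpha replicate 2, 3 or 4, without any 1 of the 4 beta replicates, or without delta replicate 4, with no filter on level (adjusted p = 0.0623) and with only the 2 cell types compared in the fit (adjusted p = 0.119). It was also lost in the lower ribosomal protein set alone, where the difference was −1.13 (adjusted p = 0.188), and kept with the set as a covariate (adjusted p = 0.0457). Jun and Ier2 were the 2 of 8 tested genes with a lower call for beta against alpha, where 4.82% of all genes were, and also the 2 whose beta samples all lay below all alpha samples, where 5.07% of all genes did so.

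Junb (chr8:84974484-84978718, − strand) encodes a Jun protein that is a weaker activator than Jun and often opposes it. It was at 7.83, 11.9, 6.19, 3.97, 1.77 and 2.48 FPKM in delta replicates 1 to 6 (mean 5.68 ± 3.78, n = 6), with replicates 1 and 2 highest. Alpha replicates 1 to 5 were at 0.923, 1.52, 0.439, 0.875 and 4.26 FPKM (mean 1.60 ± 1.53, n = 5) and beta replicates 1 to 4 at 1.85, 0.978, 0.417 and 0.297 FPKM (mean 0.886 ± 0.708, n = 4). The delta samples overlapped with beta replicate 1 and with alpha replicate 5. Junb levels of delta cells exceeded those of beta cells by 1.70 ± 0.456 on the log2 scale (adjusted p = 0.0192, limma), and this call was lost without beta replicate 3 (adjusted p = 0.0516) or beta replicate 4 (adjusted p = 0.0697), in the lower ribosomal protein set alone (1.31, adjusted p = 0.0898) and under quantile normalization (1.20, adjusted p = 0.0575), and kept with the set as a covariate (adjusted p = 0.0170). Against alpha cells the difference was 1.32 ± 0.428 (adjusted p = 0.0846), which passed without alpha replicate 5 (adjusted p = 0.0262) or delta replicate 5 (adjusted p = 0.0452) and was 0.46 in the lower ribosomal protein set alone (adjusted p = 0.818). Beta against alpha cells gave −0.38 ± 0.474 (adjusted p = 0.678). Exons of Junb share 173 of 2301 bases with Prdx2 on the opposite strand, a far more abundant gene with a mean of 309.4 FPKM in alpha, 50.42 in beta and 129.7 in delta cells, so some reads could belong to either.

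Jund (chr8:70698949-70700616, + strand, a single exon) encodes the Jun protein that is made without a stimulus in most cells and is the least inducible of the family. Delta replicates 1 to 6 were at 13.6, 9.88, 19.99, 9.94, 8.54 and 11.7 FPKM (mean 12.3 ± 4.17, n = 6), beta replicates 1 to 4 at 3.27, 4.81, 1.75 and 3.23 FPKM (mean 3.27 ± 1.25, n = 4), and alpha replicates 1 to 5 at 3.89, 5.46, 2.53, 7.81 and 12.6 FPKM (mean 6.46 ± 3.96, n = 5). No delta sample overlapped with a beta sample, and the alpha samples reached into both ranges. The difference between delta and beta cells was 1.64 ± 0.380 (adjusted p = 0.00823, limma), that between delta and alpha cells 0.94 ± 0.356 (adjusted p = 0.157) and that between beta and alpha cells −0.70 ± 0.394 (adjusted p = 0.311). Without alpha replicate 5 the delta against alpha difference passed, at 1.19 (adjusted p = 0.0435), and in the lower ribosomal protein set alone it was 0.24 (adjusted p = 0.893). In that set beta against alpha cells gave −1.57 (adjusted p = 0.0510). Gm11175, annotated on the opposite strand, covers 877 of the 1668 bases of Jund and had means of 9.838, 4.244 and 17.16 FPKM in alpha, beta and delta cells. Without strand, the reads of this pair cannot be told apart, and the level of Jund is uncertain to that extent.

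In delta against beta cells, 5 of the 8 tested genes (Egr1, Ier2, Jun, Junb and Jund) were thus called higher, where 11.7% of all genes were. Of these 5, Egr1, Ier2 and Jund also had every delta sample above every beta sample, as did 12.3% of all genes. These 3 calls were kept under each alternative that gave a value (the filter of 5 FPKM gave none for Ier2), with highest adjusted p of 0.0142 for Egr1, 0.00957 for Ier2 and 0.0485 for Jund. In delta against alpha cells 0 of the 8 genes had every delta sample above every alpha sample, beside 4.97% of all genes.

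**Figure D2:**
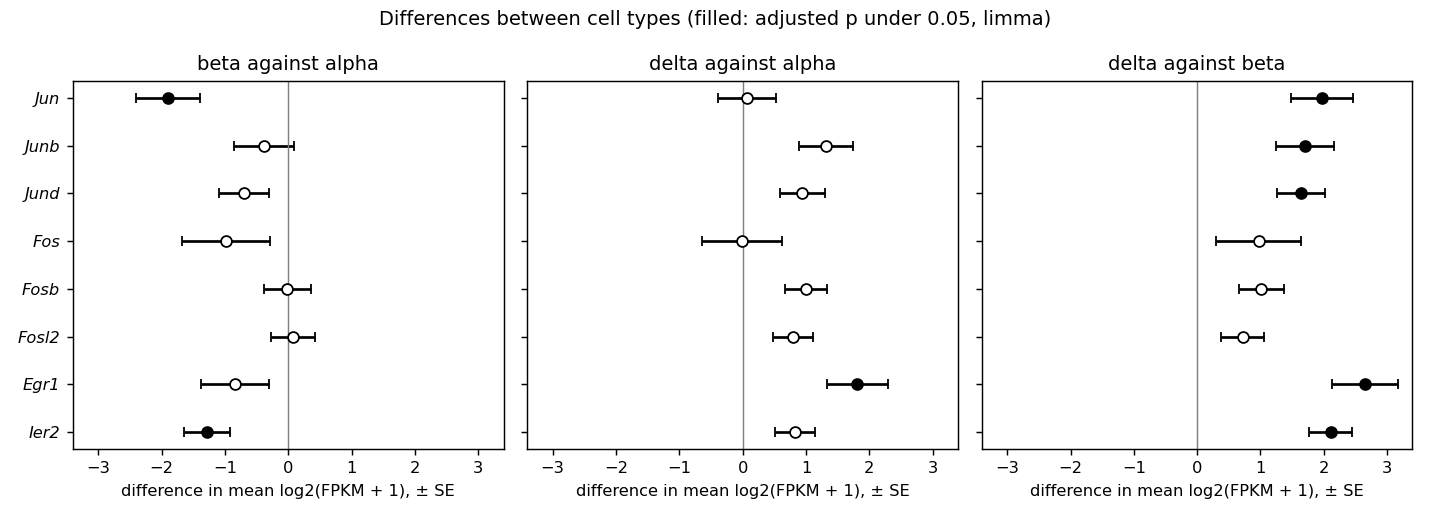
Difference in mean log2(FPKM + 1) ± SE between cell types for the 8 genes tested, with filled points at an adjusted p under 0.05 (limma). Filled points are Jun (−1.90) and Ier2 (−1.28) in beta against alpha cells, Egr1 (1.81) in delta against alpha cells, and Egr1, Ier2, Jun, Junb and Jund (1.64 to 2.65) in delta against beta cells.

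Fos (chr12:85473890-85477273, + strand, 4 exons), the prototype immediate early gene and the Fos partner of AP-1, had wide and overlapping ranges in the 3 cell types. Delta replicates 1 to 6 were at 22.7, 16.5, 6.24, 9.76, 4.70 and 0.971 FPKM, and alpha replicates 1 to 5 at 8.07, 5.57, 30.2, 2.90 and 5.07 FPKM. Beta replicates 1 to 4 were at 5.55, 5.89, 1.13 and 2.60 FPKM. The 3 ranges overlapped, the highest value of all came from alpha replicate 3, and the lowest from delta replicate 6. The means were 10.4 ± 11.3 in alpha (n = 5), 3.79 ± 2.31 in beta (n = 4) and 10.1 ± 8.08 FPKM in delta cells (n = 6). None of the 3 differences passed the test: −0.98 ± 0.695 for beta against alpha (adjusted p = 0.427, limma), −0.01 ± 0.627 for delta against alpha (adjusted p = 1) and 0.97 ± 0.668 between delta and beta (adjusted p = 0.371). Within delta cells the highest sample was 23.4 times the lowest, and 92.2% of the genes tested had a smaller SD there than Fos (1.28 on the log2 scale).

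The delta samples with high Fos were those of the higher ribosomal protein set. Mean Fos was 19.6 FPKM in delta replicates 1 and 2 and 5.42 FPKM in the other 4, and the corresponding means were 21.9 and 10.3 FPKM for Jun and 9.85 and 3.60 FPKM for Junb. Egr1 (29.0 and 34.2 FPKM), Jund (11.7 and 12.5 FPKM) and Ier2 (4.41 and 4.12 FPKM) were close between these sets. Fosl2 went the other way, with 0.656 and 2.19 FPKM. In alpha cells mean Fos was 14.6 FPKM in the 3 samples of the higher set and 3.98 FPKM in the other 2, a gap that rests on alpha replicate 3 (30.2 FPKM), since the other samples of the higher set were at 8.07 and 5.57 FPKM. Jun was at 11.7 and 11.2 FPKM in these sets of alpha samples. Egr1 (7.56 and 17.4 FPKM), Jund (3.96 and 10.2 FPKM) and Junb (0.960 and 2.57 FPKM) had lower means in the higher set of alpha samples. For Egr1 and Junb this rests on alpha replicate 5 (30.4 and 4.26 FPKM), since alpha replicate 4, the other sample of the lower set, was at 4.44 and 0.875 FPKM. The part of library composition in these levels was not tested.

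Fosb (chr7:19302696-19310051, − strand) encodes a Fos protein known for its stable splice form in stimulated neurons. It was at 3.02, 2.15, 2.70, 2.94, 1.49 and 0.254 FPKM in delta replicates 1 to 6 (mean 2.09 ± 1.07, n = 6), from 0.0611 to 1.09 FPKM in alpha samples (mean 0.505 ± 0.485, n = 5) and from 0.121 to 0.788 FPKM in beta samples (mean 0.451 ± 0.272, n = 4). Delta replicates 1 to 5 were above every alpha and beta sample, and delta replicate 6 was inside both ranges. The differences of 1.00 ± 0.332 for delta against alpha (adjusted p = 0.0961, limma) and 1.01 ± 0.354 between delta and beta cells (adjusted p = 0.0680) did not pass the test. Without delta replicate 6 both passed, at 1.24 (adjusted p = 0.0155) and 1.25 (adjusted p = 0.0132). Quantile normalization lowered them to 0.59 (adjusted p = 0.302) and 0.49 (adjusted p = 0.332), and a pseudocount of 0.1 gave 2.01 (adjusted p = 0.111) and 1.87 (adjusted p = 0.106). Fosb passed the filter only through delta cells, where it was high, so these values are descriptions. With no filter on level the adjusted p was 0.103 and 0.0804. Beta against alpha cells gave −0.01 ± 0.368 (adjusted p = 1).

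Fosl2 (chr5:32135801-32157842, + strand) and Fosl1 (chr19:5447547-5455946, + strand) encode the Fra proteins, Fos relatives without a strong activation domain that accumulate later than Fos. Fosl2 was at 0.768, 0.545, 2.08, 1.98, 2.06 and 2.62 FPKM in delta replicates 1 to 6 (mean 1.68 ± 0.824, n = 6), 0.0928 to 1.02 FPKM in alpha samples (mean 0.516 ± 0.410, n = 5) and 0.183 to 1.52 FPKM in beta samples (mean 0.627 ± 0.610, n = 4). Delta replicates 3 to 6 were above all samples of the other cell types, and delta replicates 1 and 2, the highest for Fos, were not. The differences were 0.80 ± 0.314 for delta against alpha (adjusted p = 0.178, limma), 0.72 ± 0.334 for delta against beta (adjusted p = 0.171) and 0.08 ± 0.348 for beta against alpha cells (adjusted p = 0.939). In the lower ribosomal protein set alone, delta against beta passed, at 1.26 (adjusted p = 0.0144), whereas quantile normalization gave 0.28 (adjusted p = 0.585). Fosl2 passed the filter only through delta cells, where it was high, so that call is a description. Fosl1 was at most 0.597 FPKM in any sample and was listed at 0 in alpha replicates 2 and 3 and beta replicates 3 and 4. Ccdc85b on the opposite strand covers 1163 of its 2033 exonic bases. With no filter on level, its largest difference was 0.30 for delta against beta cells (adjusted p = 0.170, limma over 23792 genes).

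Atf3 (chr1:191170296-191218039, − strand), a stress-induced factor that dampens inflammatory and metabolic genes and is a frequent marker of injured cells, was close to or at 0 in nearly all samples. It was at 0.134, 0, 1.39, 0.0718 and 0 FPKM in alpha replicates 1 to 5 and 0.119 FPKM in beta replicate 1, and it was listed at 0 in the other beta samples. In delta replicates 1 to 6 it was at 0.0572, 0.0664, 0.128, 0.0220, 0 and 0 FPKM. Alpha replicate 3, which also had the highest Fos, stood above all other samples. In delta replicates 1, 2 and 4, whose depth was readable, these levels were worth 1.1, 1.2 and 1 reads on the longest transcript, and the level of delta replicate 3 was worth 6.9 reads. Differences with no filter on level were between −0.27 and 0.02 on the log2 scale, with adjusted p of at least 0.550.

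Ranked by mean level, the genes stood in a different order in each cell type. In delta cells Egr1 (32.5 FPKM) led, followed by Jun (14.2), Jund (12.3) and Fos (10.1), whose values overlapped, and then by Junb (5.68), Ier2 (4.22), Fosb (2.09) and Fosl2 (1.68). In alpha cells Egr1 and Jun (11.5 each), Fos (10.4) and Jund (6.46) overlapped, and Ier2 (1.91) and Junb (1.60) came next. In beta cells the leading means were Egr1 (4.96), Fos (3.79), Jund (3.27) and Jun (2.54), all overlapping. Fosl1 and Atf3 had the lowest means of the 10 in all 3 cell types. These are levels per length of transcript, with no test between genes.

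Among samples of a cell type, Jun was correlated with Fos, Fosb and Junb. After the mean of each cell type was subtracted, Pearson's r over the 15 samples was 0.80 between Fos and Jun, 0.82 between Fosb and Jun, 0.74 between Jun and Junb and 0.58 between Fos and Fosb. With Fos, Ier2 (r = 0.41), Junb (0.35) and Egr1 (0.32) gave lower values, and Jund (−0.23) and Fosl2 (−0.53) had the opposite sign. These values are descriptions: the points share libraries, depth and library composition, and delta replicate 6 had the lowest deviation of the 15 samples in Fos, Fosb and Jun. Delta replicate 6 was the lowest delta sample for 4 of the 8 genes and delta replicate 5 for 3. In beta cells replicate 1 was the highest for 5 and replicate 2 for 3, and replicates 3 and 4 were the lowest for 4 each. In alpha cells the genes disagreed, with replicate 5 highest for 4 and replicate 3 highest for 2 and lowest for 2. The genes outside the list most like Fos over the 15 samples were 1700025K23Rik (r = 0.89), Gm7808 (0.88), Ap4s1 (0.87), Ftsj2 (0.87) and Il10rb (0.86). After subtraction of the cell type means they were 1700025K23Rik (0.94), Csdc2 (0.91), Unc119b (0.89), Fbxo25 (0.88) and Snora23 (0.87).

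**Figure D3:**
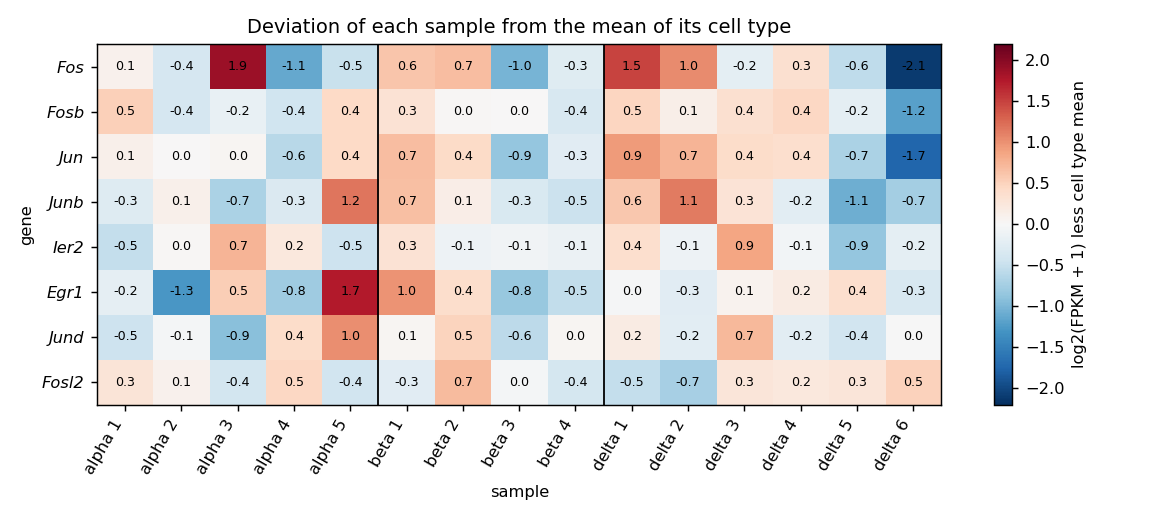
Deviation of each sample from the mean of its cell type, in log2(FPKM + 1), for the 8 genes tested (rows) in the 15 samples (columns). Delta replicate 6 is low in Fos, Fosb, Jun and Junb and near its cell type mean in Jund, and alpha replicate 3 is high in Fos but not in Jun or Fosb.

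Summed markers of other cells were set beside these levels, and no correlation was computed. The summed FPKM of 6 acinar genes was 0.0651 to 63.3 (median 13.2) in alpha, 0.0283 to 8.82 (median 1.502) in beta and 19.6 to 465.6 (median 91.4) in delta samples, with none of the 6 at 0 in every sample of a cell type. Every delta sample was above every beta sample in this sum, as for Egr1, Ier2 and Jund. Delta replicate 4 had the highest acinar sum, 465.6 FPKM, and a Fos level of 9.76 FPKM, below delta replicates 1 and 2, whereas alpha replicate 3 had the highest of the alpha samples in both. Of 7 macrophage and leukocyte genes the sum was 0.615 to 1.83 FPKM in alpha, with Emr1, Ptprc and Tyrobp at 0, 0.0277 to 2.79 in beta, with Emr1 and Tyrobp at 0, and 0 to 10.3 in delta samples, where Ptprc was at most 0.0581. Delta replicate 2, second in Fos among delta samples, had a macrophage and leukocyte sum of 0. The highest such sum, 10.3 FPKM, was that of delta replicate 6, the lowest in Fos. The sums of 5 endothelial genes were 1.47 to 2.88, 0.619 to 3.34 and 2.96 to 6.17 FPKM, with Cdh5 at 0 in alpha cells. The sums of 5 duct cell genes were 25.3 to 172, 8.56 to 24.2 and 19.8 to 99.9 FPKM, with Cftr at 0 in alpha and beta and Krt19 at 0 in delta cells. The sums of 5 stellate cell and fibroblast genes were 0.848 to 3.79, 0 to 0.00687 and 0 to 0.0576 FPKM, with Col1a1 and Pdgfra at 0 in all 3 cell types. Of 4 erythroid genes 3 were in the table, with sums of at most 5.09 FPKM. Ppy, given above, was likewise lower in every beta sample (at most 98.08 FPKM) than in any alpha or delta sample (at least 1.086e+04 FPKM), the split seen for Ier2. The part of PP, acinar, duct and endothelial cells and leukocytes in the differences of the immediate early genes was not tested.

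Related genes were examined in 7 lists. Some of them, such as Plk2, Nupr1 and Hspb1, passed the filter only through the cell type where they were high. Calls of such genes, and the counts that hold them, are descriptions. Of 38 other immediate early genes 27 passed the filter. Beta cells had 8 of them lower and 1 higher than alpha cells, delta cells had 3 higher and 3 lower than alpha cells, and delta cells had 8 higher and 2 lower than beta cells. Over all genes tested, 4.82% were lower and 2.84% higher in beta against alpha cells, 5.33% passed as higher and 1.48% as lower in delta against alpha cells, and the shares for delta against beta cells were 11.7% and 2.99%. The medians of the list were −0.54, 0.30 and 0.83 on the log2 scale, beside −0.13, 0.13 and 0.30 over all genes. Nr4a2, an orphan nuclear receptor induced by cAMP, was highest in alpha cells at 8.31 ± 2.32 FPKM, with 2.38 ± 1.82 in beta and 0.566 ± 0.354 in delta cells, and delta cells were lower than alpha cells by −2.56 (adjusted p = 8.9e-05, limma). Plk2, a kinase induced by serum and synaptic activity, was at 4.02 ± 2.33 FPKM in alpha cells, 0.0679 ± 0.104 in beta and 0.554 ± 0.415 in delta cells (delta against alpha −1.60, adjusted p = 0.00391). Per1, a clock gene that also responds at once to cAMP and glucocorticoids, was at 16.0 ± 18.3, 1.92 ± 0.511 and 9.93 ± 3.87 FPKM in alpha, beta and delta cells (delta against beta 1.85, adjusted p = 0.0129). The most abundant genes of this list, Rgs2, Crem and Btg2, did not pass in any pair of cell types, and Rgs2 was at 51.3 ± 27.0, 50.5 ± 46.8 and 93.1 ± 51.0 FPKM.

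Genes that act before or beside AP-1 and Egr1 were also listed. Of 23 tested kinases and serum response factor pathway genes, 3 were lower in beta than in alpha cells (Map2k7, Map2k1 and Srf), where 4.82% of all genes were. In delta against beta cells 3 were higher (Map2k7, Srf and Map2k6), a share near the 11.7% of all genes. Map2k7, the kinase that activates JNK, was at 13.2 ± 5.85, 3.70 ± 0.873 and 18.3 ± 8.66 FPKM in alpha, beta and delta cells, with a delta against beta difference of 1.97 (adjusted p = 0.00157, limma). Map2k6, an activator of p38, was at 0.451 ± 0.476, 1.31 ± 1.07 and 4.49 ± 1.21 FPKM (delta against alpha 1.95, adjusted p = 0.000739), and it and the neuronal JNK Mapk10 (15.6 ± 7.20, 27.0 ± 10.5 and 45.1 ± 10.8 FPKM) were the 2 of 23 with a higher call for delta against alpha cells, where 5.33% of all genes had one. Mapk3, the ERK1 kinase and the most abundant of the list, was at 176 ± 78.3, 194 ± 65.3 and 199 ± 42.0 FPKM and passed in no pair. Of the AP-1 partners and antagonists, with 19 tested rows, Atf5, a factor of the stress response in beta cells, was at 22.0 ± 9.12 FPKM in beta cells against 3.28 ± 2.23 in alpha and 3.95 ± 1.36 in delta cells (delta against beta −2.16, adjusted p = 0.00283).

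Of 6 tested repressors of this pathway, 2 were lower in beta against alpha cells (4.82% of all genes), 1 was higher and 1 lower in delta against alpha cells (5.33% and 1.48%), and 2 were higher and 1 lower in delta against beta cells (11.7% and 2.99%). Tob1, Nab1 and Fbxw7 passed in no pair. Nab2, a corepressor that binds EGR1 and is itself induced by it, was at 11.6 ± 1.31 FPKM in delta cells, 2.54 ± 2.85 in alpha cells and 0.225 ± 0.283 in beta cells. Delta cells exceeded beta cells by 3.38 (adjusted p = 1.2e-05, limma) and alpha cells by 2.09 (adjusted p = 0.000811). Dusp16, a phosphatase of JNK, was at 4.79 ± 2.71, 0.793 ± 0.530 and 4.30 ± 1.08 FPKM in alpha, beta and delta cells (delta against beta 1.59, adjusted p = 0.00957). Dusp10, a phosphatase of JNK and p38, was lowest in delta cells at 2.02 ± 0.519 FPKM, against 10.3 ± 5.64 in alpha and 6.83 ± 4.51 in beta cells (delta against alpha −1.80, adjusted p = 0.00483).

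Other stress genes were examined in 3 of the lists. Of 16 tested heat shock genes, 1 was lower in beta against alpha, 1 higher in delta against alpha and 2 higher in delta against beta cells, shares near those of all genes (4.82%, 5.33% and 11.7%). Hspb1, a small heat shock protein that protects actin filaments, was at 17.5 ± 3.76 FPKM in delta cells, 0.802 ± 0.365 in alpha and 0.266 ± 0.160 in beta cells (delta against beta 3.85, adjusted p = 9.8e-08, limma). It passed the filter only through delta cells, where it was high, so this difference is a description. Dnajb1, an inducible Hsp40 co-chaperone, was at 21.6 ± 5.35, 7.82 ± 2.77 and 30.6 ± 10.2 FPKM (delta against beta 1.84, adjusted p = 0.00159). The abundant chaperones Hsp90ab1, Hspa8 and Hsp90aa1 passed in no pair of cell types. Of 13 tested genes of the integrated stress response and growth arrest, 4 exceeded the alpha cell level in beta cells (Vldlr, Ddit3, Asns and Nupr1) and 3 of these 4 were also higher in beta than in delta cells, where the shares of all genes were 2.84% and 2.99%. The median of this list for delta against beta cells was 0.27, near the 0.30 of all genes. Nupr1, a nuclear protein induced by stress, was at 37.0 ± 16.7 FPKM in beta cells against 0.289 ± 0.245 in alpha and 0.681 ± 0.733 in delta cells. It passed the filter only through beta cells, where it was high, so its part in these counts is a description. Asns, the asparagine synthetase driven by ATF4, was at 112 ± 67.6 FPKM in beta, 32.3 ± 12.2 in alpha and 26.2 ± 10.3 in delta cells (delta against beta −1.95, adjusted p = 0.00587). Gadd45b, a growth arrest gene induced by stress and NF-κB, was instead at 12.7 ± 3.38 FPKM in alpha, 0.473 ± 0.382 in beta and 5.52 ± 2.53 in delta cells, and it differed in all 3 pairs (adjusted p = 1.6e-05 for beta against alpha, 0.0384 for delta against alpha and 0.000528 for delta against beta). Of 15 NF-κB feedback and cytokine genes 7 passed the filter, and Nfkbia, the inhibitor that NF-κB induces at once, differed by 1.35 between delta and beta cells (adjusted p = 0.0442).

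**Figure D4:**
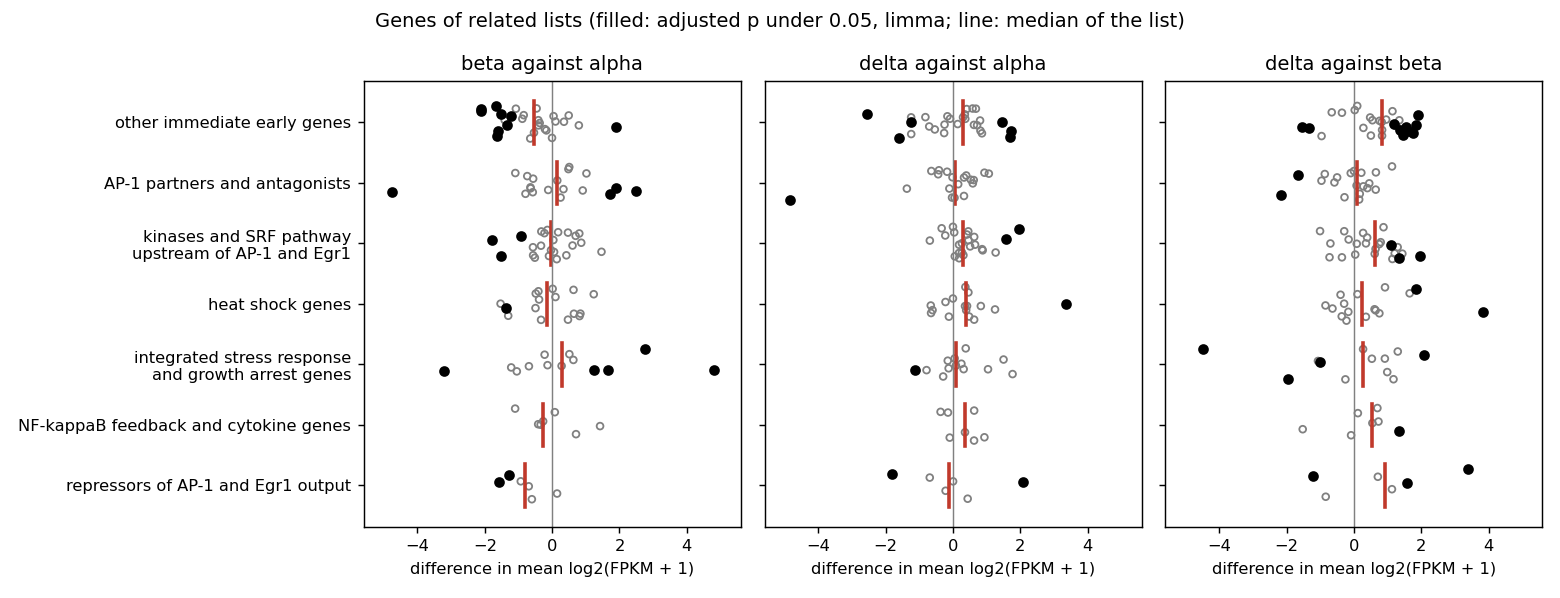
Difference in mean log2(FPKM + 1) between cell types for every tested gene of the 7 related lists, with filled points at an adjusted p under 0.05 (limma) and a line at the median of each list. The other immediate early genes have medians of −0.54, 0.30 and 0.83 in the 3 comparisons, and the outermost filled points to the right in delta against beta cells are Hspb1 (3.85) and Nab2 (3.38).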

How the data were processed

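Cells from pools of mouse islets were sorted. Their RNA was amplified with the NuGEN Ovation RNA-Seq V2 kit, which keeps no strand, and sequenced as single reads of 50 bases. Alpha and beta cells both came from Glu-Venus sorts, and whether their samples shared pools was not given. The fit below treats all 15 samples as independent. Per the labels and methods, the authors aligned reads to GRCm38 with TopHat, whose version differs between the submitters' processing notes (TopHat2 2.0.8) and the methods, and the deposited FPKM values were made with Cufflinks 2.2.1. The annotation release was not given in the sources used here. The raw counts behind the authors' own edgeR test were not used here.

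FPKM values were tested as log2(FPKM + 1) in R 4.3.3 by limma 3.58.1 (1 linear model over all 15 samples without covariates, then trended empirical Bayes). Genes with a mean above 1 FPKM in at least 1 cell type entered, and a call needed a Benjamini-Hochberg adjusted p under 0.05 over all 14405. The fit was tested on simulated data. Named were all 10 genes of the list and, in each related list, up to 3 called genes of largest difference and up to 3 of highest level. Of these, values are printed for the former and some of the latter, and 1 result is not reported here. Lists and members were chosen with earlier results of these data known. Alternatives were a pseudocount of 0.1, no filter or one of 5 FPKM, median-ratio and quantile scaling, the ribosomal protein set (limit 50000 FPKM) as covariate, only the 2 cell types compared, no trend, a replicate block and each replicate left out. The lower ribosomal protein set alone was added after seeing the data. Depth was estimated from steps between low FPKM values of genes with transcripts over 1000 bases. Gene positions and overlaps were from GENCODE M21 on GRCm38.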

Additional observations from a re-analysis of the deposited data

Results flagged for a closer look

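Each of the 10 genes was examined in each cell type for 1 sample far from the others by Dixon's criterion, which chance meets in about 1 of 20 groups. Atf3 in alpha replicate 3 was at 1.39 FPKM, and the other 4 alpha samples were between 0 and 0.134 FPKM. Atf3 in beta replicate 1 was at 0.119 FPKM, and the other beta samples were listed at 0, so the criterion was met whatever the value and carries no information there. Ier2 in beta replicate 1 was at 0.410 FPKM, and the other beta samples were between 0.0339 and 0.0698 FPKM.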

How the results depend on the processing

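Each test was repeated under each alternative that could be fitted. Of the 8 genes tested, 5 differed across cell types in the reported fit, and leaving out 1 replicate gave 3 to 6. For beta against alpha cells the count of 2 became 0 with no filter, 1 with a filter of 5 FPKM, 1 with only the 2 cell types compared, 0 in the lower ribosomal protein set alone and 0 to 2 on leaving out 1 replicate. For delta against alpha cells the count of 1 became 0 in the lower set alone and 0 to 3 on leaving out 1 replicate. For delta against beta cells the count of 5 was 4 to 6 on leaving out 1 replicate. Small differences turned sign. Fosb in beta against alpha cells was 0.14 with a pseudocount of 0.1, 0.14 with median-ratio scaling, 0.11 with quantile scaling, 0.055 with the ribosomal protein covariate and −0.12 to 0.12 on leaving out 1 replicate. Jun in delta against alpha cells was −0.089 with median-ratio scaling, −0.087 with quantile scaling, −0.26 in the lower set and −0.11 to 0.42 on leaving out 1 replicate. Fos in delta against alpha cells was 0.38 with the covariate, 0.16 in the lower set and −0.31 to 0.46 on leaving out 1 replicate, and Fosl2 in beta against alpha cells was −0.17 in the lower set and −0.15 to 0.21. Causes of these shifts were not tested. Median-ratio scaling moved the median of all genes by 0.13, −0.13 and −0.29 in beta against alpha, delta against alpha and delta against beta cells. Same-numbered samples of different cell types had a mean r of 0.0761 over 13 pairs, 5 above 0.1, and 3 of 15 samples correlated best with their own number. The pairs include those with delta samples, which came from another mouse line. These values therefore cannot decide whether alpha and beta samples shared a sort. The replicate block takes delta replicate 6, which has no partner of its number, out of the comparisons. With it, 6 genes differed between delta and beta cells, as on leaving out that sample alone, and 1, Fosb (1.24, also the value without that sample), between delta and alpha cells, where Egr1 had adjusted p = 0.0505. The block gave Fos 0.41 in delta against alpha cells. Over all genes it moved the calls across cell types from 2301 to 2198. Fosb, Fosl2 and Ier2 had no value under the filter of 5 FPKM, nor Fosb and Fosl2 in beta against alpha cells alone, and depth is unknown in 9 of 15 samples.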
